A study of Gallus gallus with 8 samples.

Results

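Hearts of chicken embryos that carried transcripts of the female-specific W chromosome were compared with hearts that did not. The 8 libraries of the series were split by the level of ATP5A1W, the W-linked copy of the alpha subunit gene of mitochondrial ATP synthase. The level was above 50 RPKM (reads scaled for gene length and library depth) in 4 of 8 libraries, which were Lhasa White 2, Chahua 1, Chahua 2 and White Leghorn 1. It was below 50 RPKM in the other 4, which were Lhasa White 1, White Leghorn 2, Linzhi Tibetan 1 and Linzhi Tibetan 2. The nearest values on either side of the limit were 398 RPKM in Lhasa White 2 and 4.02 RPKM in Lhasa White 1, so the limit fell in a wide gap.

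The series sequenced messenger RNA from embryonic hearts after 16 days of incubation in 4 breeds, with 2 libraries each. RNA was isolated with TRIzol, and the libraries were built with an Illumina kit for mRNA. The breeds are Lhasa White, Chahua, White Leghorn (entered as White leghom) and Linzhi Tibetan, and all hearts were untreated as far as the labels say. No sex was recorded, so the groups are named here by their W transcripts. Whether libraries of the same breed stem from different embryos is not stated in the labels, and p-values therefore measure only the spread between these libraries. Both Chahua libraries carried W transcripts and neither Linzhi Tibetan library did, so for these breeds the W group and the breed cannot be told apart.

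In birds the male carries a pair of Z chromosomes and the female a Z and a W. The W holds few genes, most of them copies of genes that also remain on the Z. Birds have no chromosome-wide silencing or doubling of the Z comparable to that of the mammalian X, and many Z-linked genes are therefore expressed at a lower level in females, a state called incomplete dosage compensation. An exception described in chicken is the MHM region near DMRT1, a testis-determining gene of the Z, where a noncoding RNA is made in females.

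Library depths were alike, with 17245669 to 22157553 mapped reads fitted to the deposited values and no group standing apart. Heart identity was clear in all libraries, with the myosin light chain gene MYL3 at 6672 to 10168 RPKM. The atrial genes MYH7 and BMP-10 stood out in 2 libraries, both with W transcripts. MYH7 was at 1457 RPKM in Lhasa White 2 and 115 RPKM in Chahua 2, and at 0.878 to 7.07 RPKM in the other 6. BMP-10 was at 289.7 RPKM in Lhasa White 2 and 22.4 RPKM in Chahua 2, and at 0.745 to 3.93 RPKM elsewhere. Class counts and medians, and the values of some named genes, are therefore also given without these 2 libraries.

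W-linked genes were read as a description only, since one of them had made the split. Single-library values follow the order Lhasa White 2, Chahua 1, Chahua 2 and White Leghorn 1 for hearts with W transcripts, and Lhasa White 1, White Leghorn 2, Linzhi Tibetan 1 and Linzhi Tibetan 2 for hearts without. ATP5A1W had 398, 445, 496 and 409 RPKM in hearts with W transcripts, against 4.02, 0.241, 0.0774 and 0.355 RPKM in hearts without. HINTW, the amplified W-linked relative of the nucleotide hydrolase gene HINT1, occupies 2 rows. The row ENSGALG00000022674 had 390, 409, 359 and 539 RPKM in hearts with W transcripts, against 3.91, 0, 0 and 0.304 RPKM in hearts without. The other HINTW row, ENSGALG00000022683, was lower, at 20.5, 33.5, 19.8 and 28.5 RPKM in hearts with and 0.349, 0, 0 and 0 RPKM in hearts without W transcripts. WPKCI, a further name for this W-linked gene family, had 360, 367, 333 and 341 RPKM in hearts with W transcripts, against 1.52, 0, 0 and 0.197 RPKM in hearts without. Near-identical copies of this family may share reads, so the division between these rows is uncertain. SPINW, the W copy of a spindlin gene, had 5.78, 4.58, 6.45 and 4.92 RPKM in hearts with W transcripts, against 0.0524, 0, 0.0173 and 0.0159 RPKM in hearts without. All of these rows were high in the same 4 libraries and the groups did not overlap.

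Some symbols and levels disagreed. HNRPK, matched to the W copy of the RNA-binding protein gene HNRNPK through a synonym, had 29.7, 26.8, 29.4 and 29.7 RPKM in hearts with W transcripts. It kept 1.18, 1.71, 1.56 and 1.55 RPKM in hearts without W transcripts, and reads shared with the Z copy cannot be told apart. BTF3, a transcription factor gene whose symbol is placed on the Z, had 34.4, 38.3, 48.8 and 41.9 RPKM in hearts with W transcripts and 0.439, 0.0645, 0 and 0.228 RPKM in hearts without, which is the pattern of the W rows. NEDD4L, a ubiquitin ligase gene placed on the W by symbol, went the other way, at 15.5, 13.2, 15.4 and 14.1 RPKM in hearts with and 24.0, 21.1, 25.5 and 26.2 RPKM in hearts without W transcripts. The remaining W-matched row was the precursor gga-mir-7b, at 0, 2.64, 1.38 and 2.27 RPKM in hearts with W transcripts and 0 RPKM in all hearts without.

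**Figure D1:**
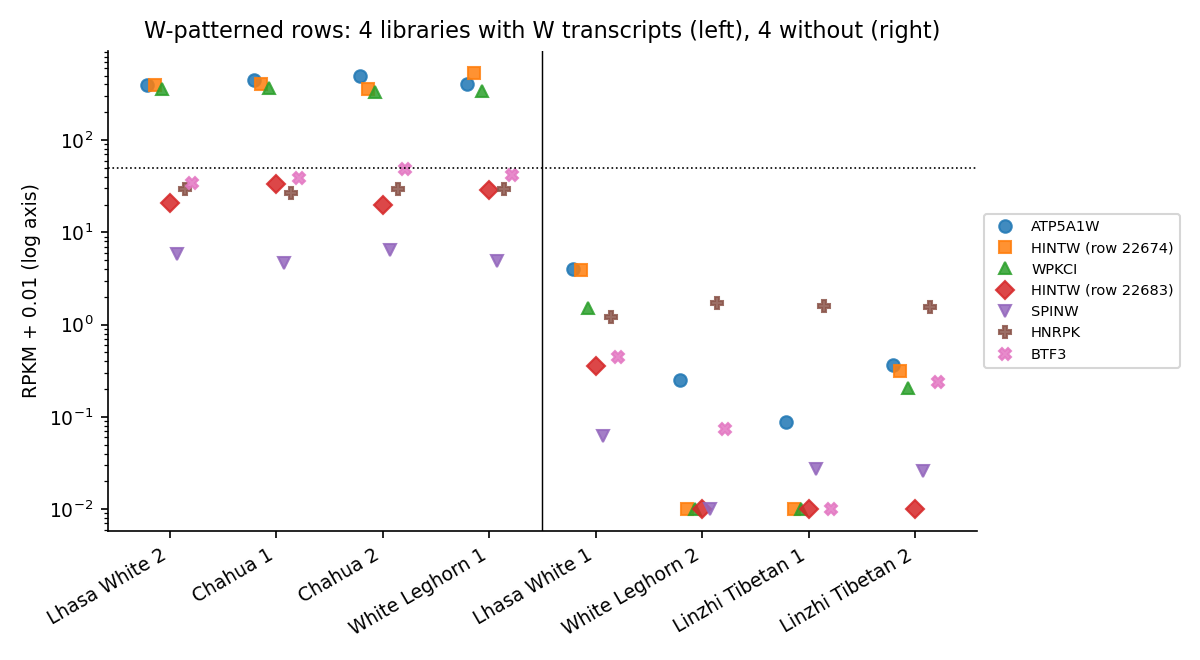
RPKM (log axis, 0.01 added) of 7 rows with the W pattern in each library, with the 4 libraries with W transcripts left of the vertical line and the 4 without right of it; the dotted line marks 50 RPKM. ATP5A1W lies at 398 to 496 RPKM on the left and at 0.0774 to 4.02 RPKM on the right, where Lhasa White 1 is the highest.

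A wider set of rows followed the same pattern. Searched for after the values were seen, 35 rows had at least 1 RPKM in all 4 hearts with W transcripts and less than 0.1 of the lowest of these in all hearts without. Of these, 28 have no chromosome in the gene table used, and 27 of those carry no symbol. The others were 6 rows matched to the W and BTF3. Together the 35 rows held 34758 to 42182 reads in each library with W transcripts. Lhasa White 1 held 452 reads over them, against 147 in White Leghorn 2, 134 in Linzhi Tibetan 1 and 179 in Linzhi Tibetan 2. Over the 16 rows that averaged at least 10 RPKM in hearts with W transcripts, the median level in Lhasa White 1 was 0.952% of that average, against 0% in White Leghorn 2, 0% in Linzhi Tibetan 1 and 0.0493% in Linzhi Tibetan 2. The source of the W reads in Lhasa White 1 was not tested, and results without that library are given below.

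Z-linked genes were lower in hearts with W transcripts across most of the chromosome. Of 588 Z-linked rows, 457 passed the filter of at least 1 RPKM in at least 2 libraries, and 370 of these were lower and 87 higher in hearts with W transcripts. The median difference on log2(RPKM + 1), a scale that understates changes of low genes, was -0.35 for Z-linked genes and 0.03 for 9217 autosomal genes. In limma, with p-values adjusted over all 11556 genes at a threshold of 0.05, 64 Z-linked genes fell and 2, BTF3 and SLC1A1, were called higher. Over all genes 0.632% were called lower and 0.346% higher, W-linked rows included. BTF3 and SLC1A1 reached 1 RPKM in hearts with W transcripts alone, so they passed the filter through the group where they were high, and their calls are a description. Each of the 64 genes that fell reached 1 RPKM in at least 1 library of both groups, as did 447 of the 457. For 156 Z-linked genes the 4 hearts with W transcripts all lay below the 4 without, and for 8 all lay above, while 2.23% of all genes separated with the lower values in hearts with W transcripts and 1.43% with the higher. In whole hearts, fewer cells of a type and less RNA per cell cannot be told apart.

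The count of lower Z-linked genes was 31 without Lhasa White 1, all 31 among the 64, and also 31 without Linzhi Tibetan 2, 36 without White Leghorn 2 and 42 without White Leghorn 1. Without both libraries with atrial transcripts 47 Z-linked genes were called lower, 38 of them among the 64. With breed as a term none of the 64 passed, as described below.

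The typical Z-linked gene was well below parity. Among 275 Z-linked genes with a mean of at least 5 RPKM, the median ratio of hearts with W transcripts to hearts without was 0.702, with quartiles of 0.606 and 0.900. Autosomal genes above the same level numbered 6737 and had a median ratio of 1.01. A ratio below 0.75 was found for 157 Z-linked genes, or 57.1%, and for 1.68% of autosomal genes. At the other end, 56 Z-linked genes, or 20.4%, had a ratio of at least 0.95. The 64 genes that fell had ratios of 0.449 to 0.676, with a median of 0.557. The lowest ratio among them belonged to TUSC1, a tumour suppressor candidate, which averaged 10.8 RPKM in hearts with W transcripts and 24.0 RPKM in hearts without.

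**Figure D2:**
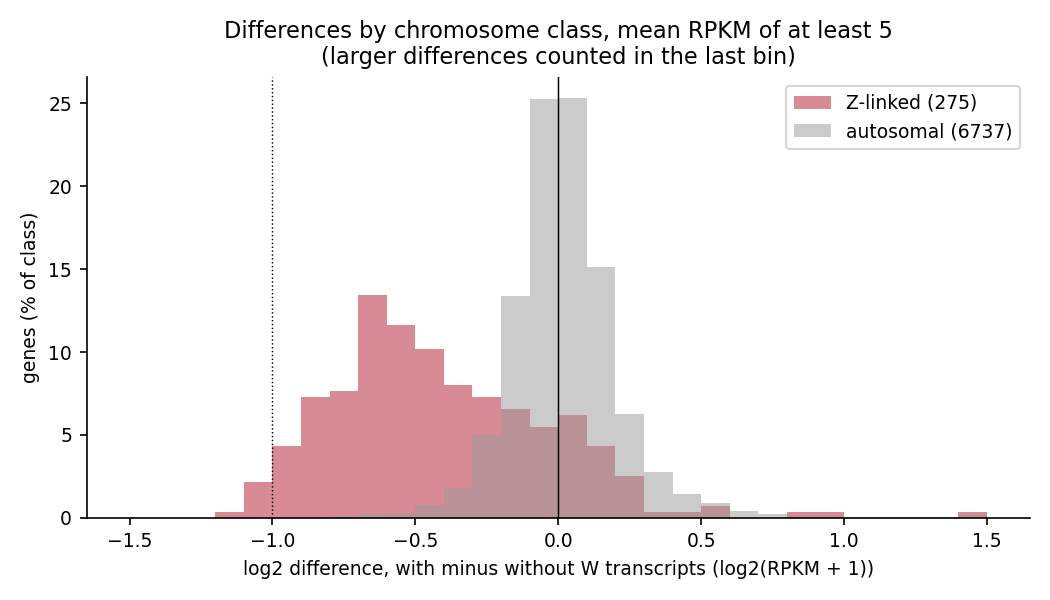
Share of genes (percent of each class) by log2 difference, hearts with minus hearts without W transcripts, for 275 Z-linked and 6737 autosomal genes with a mean of at least 5 RPKM. Differences beyond 1.5, of 1 Z-linked and 9 autosomal genes, are counted in the last bin; the Z-linked genes lie mostly left of 0 and right of the dotted line at -1, and the autosomal genes centre on 0.

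Single libraries showed the same separation. Each gene was set against its mean over the 8 libraries, and the median of these deviations over Z-linked genes was -0.19, -0.36, 0.00 and -0.24 in hearts with W transcripts, against 0.18, 0.12, 0.22 and 0.19 in hearts without. Less the autosomal median of the same library, the values were -0.25, -0.26, -0.05 and -0.26 in hearts with and 0.18, 0.14, 0.25 and 0.21 in hearts without W transcripts. Chahua 2, a library with atrial transcripts, thus lay nearest to the hearts without W transcripts, but the groups did not overlap. Z-linked genes took 1.95% ± 0.156 of the reads in hearts with W transcripts and 2.75% ± 0.0546 in hearts without (SD, n = 4 each).

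Of the Z-linked genes that fell, several with the smallest p-values are described first, with their roles as known from mammals. DCTN3, a subunit of the dynactin motor complex, had 61.4, 57.9, 55.8 and 60.8 RPKM in hearts with W transcripts, against 111, 109, 102 and 112 RPKM in hearts without. Its log2 difference was -0.87 (SE 0.0816, limma adjusted p = 0.00047), and every library with W transcripts lay far below every library without. HSPB3, a small heat shock protein of muscle, had 88.7, 81.8, 107 and 88.3 RPKM in hearts with W transcripts and 188, 165, 194 and 189 RPKM in hearts without, with no overlap. Its log2 difference was -1.01 (SE 0.107, limma adjusted p = 0.00117). TMOD1, which caps the thin filaments of the sarcomere, had 279, 308, 295 and 295 RPKM in hearts with W transcripts, against 529, 541, 499 and 478 RPKM in hearts without. The groups were each tight and fully apart, and differed by -0.80 on the log2 scale (SE 0.0864, limma adjusted p = 0.00134). Others among the smallest p-values were TRMT10B, a tRNA methyltransferase (13.1 ± 0.297 RPKM in hearts with and 25.7 ± 1.89 RPKM in hearts without W transcripts, SD, n = 4 each), and POLR1E, a subunit of RNA polymerase I (16.6 ± 0.771 RPKM in hearts with and 30.3 ± 1.41 RPKM in hearts without). ALDH7A1, an aldehyde dehydrogenase of lysine breakdown, averaged 66.2 ± 2.52 RPKM in hearts with W transcripts and 114 ± 9.41 RPKM in hearts without (SD, n = 4 each).

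Other Z-linked genes that fell are given as examples. ACAA2, a thiolase of mitochondrial fatty acid oxidation, had 209, 275, 308 and 270 RPKM in hearts with W transcripts, against 554, 519, 418 and 523 RPKM in hearts without. All 4 lay below the others, and the log2 difference was -0.93 (SE 0.140, limma adjusted p = 0.0113). RBF, which the gene table lists as a synonym of the ATP synthase subunit gene ATP5ME, averaged 896 ± 81.5 RPKM in hearts with and 1789.9 ± 226 RPKM in hearts without W transcripts (SD, n = 4 each; log2 difference -0.99, limma adjusted p = 0.0032). TXN, the redox protein thioredoxin, averaged 166 ± 13.2 RPKM in hearts with and 270.3 ± 39.6 RPKM in hearts without W transcripts, which is -0.69 on the log2 scale (limma adjusted p = 0.0335). Its call was lost without both libraries with atrial transcripts (-0.74, limma adjusted p = 0.144), within a range of 0.00839 to 0.903 over all alternatives. PLIN2, a lipid droplet coat protein chosen after its values were seen, averaged 32.8 RPKM in hearts with and 58.7 RPKM in hearts without W transcripts, and was among the 64.

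**Figure D3:**
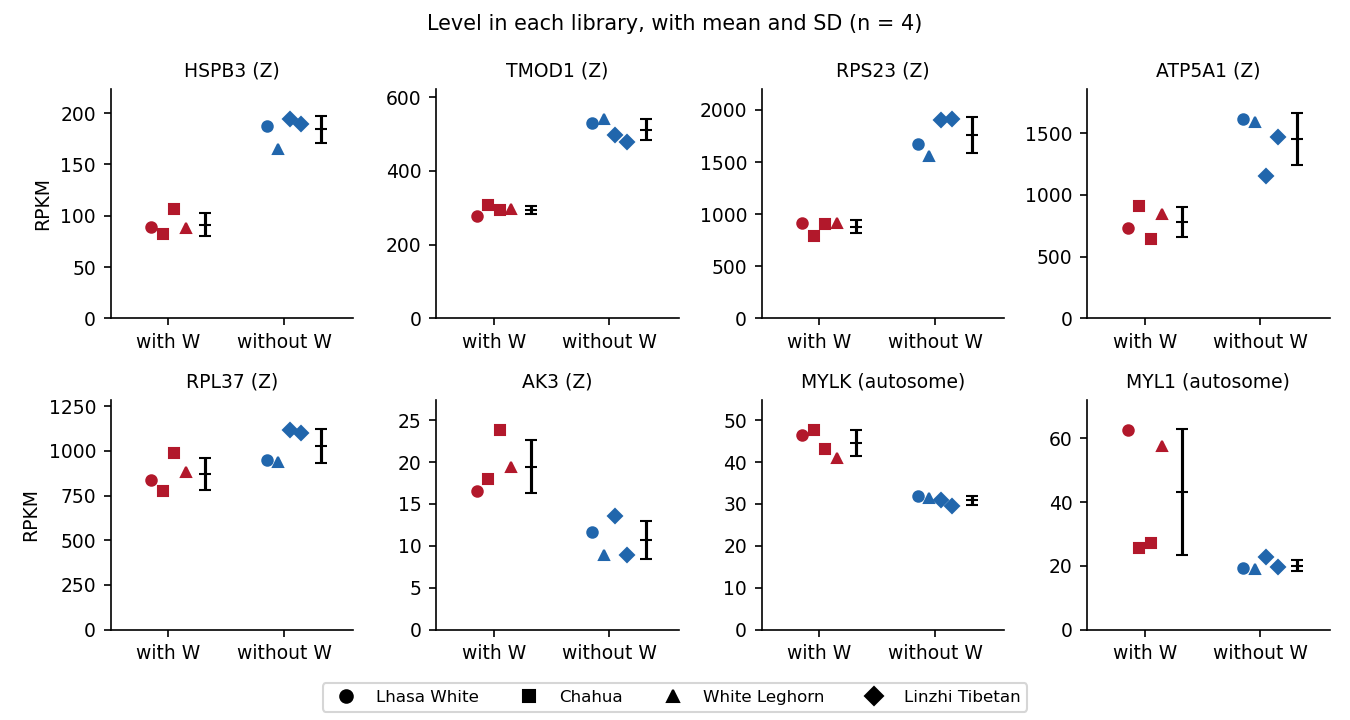
RPKM in each library of 8 genes, with hearts with W transcripts at the left of each panel and hearts without at the right; symbols mark the breed and bars the mean and SD of 4 libraries. HSPB3, TMOD1, RPS23 and ATP5A1 are apart in all libraries, RPL37 overlaps, AK3 and MYLK are higher in hearts with W transcripts, and MYL1 is highest in Lhasa White 2 and White Leghorn 1.

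Most Z-linked members of 3 gene families fell, while the autosomal members of the same families had median differences near 0. These families were picked by the start of the symbol after the values were seen, and their counts are a description. Of all tested Z-linked genes 14.0% were called lower, and of all genes 0.632%. Calls were more frequent among abundant genes, with 36 of 114 Z-linked genes in the highest of 4 expression bins. Whether the families differ from other Z-linked genes of like level was not tested. Of 3 Z-linked genes for cytosolic ribosomal proteins, 2 fell. RPS23 had 919, 789, 901 and 918 RPKM in hearts with W transcripts, against 1674, 1557, 1901 and 1914 RPKM in hearts without (log2 difference -0.995, SE 0.111, limma adjusted p = 0.00161). RPS6 averaged 1043 ± 122 RPKM in hearts with and 1874 ± 148 RPKM in hearts without W transcripts (SD, n = 4 each; log2 difference -0.85, limma adjusted p = 0.00645). RPL37 did not pass, at 871 ± 90.9 RPKM in hearts with and 1026 ± 94.3 RPKM in hearts without W transcripts (log2 difference -0.24, limma adjusted p = 0.901). The 60 autosomal genes of this family had a median log2 difference of -0.07, with 52 lower and 8 higher in hearts with W transcripts. Limma and limma voom each called 0 of them, with 1 at an unadjusted p under 0.05. Of all 11556 tested genes 5251 were lower and 6305 higher.

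Of 5 Z-linked genes for mitochondrial ribosomal proteins, MRPS30, MRPL17, MRPL50 and MRPS36 fell and MRPS27 did not pass. MRPS30 had 8.53, 10.3, 9.68 and 10.5 RPKM in hearts with W transcripts, against 21.2, 21.3, 20.5 and 20.8 RPKM in hearts without (log2 difference -1.03, SE 0.0988, limma adjusted p = 0.000533). The summed RPKM of the 5 genes was 141 ± 8.52 in hearts with and 254 ± 26.5 in hearts without W transcripts, a ratio of 0.556. The 54 autosomal genes of the family summed to 2760 ± 165 in hearts with and 2910 ± 162 RPKM in hearts without W transcripts, a ratio of 0.949. Of these, 38 were lower and 16 higher in hearts with W transcripts, 0 were called by limma or limma voom and 0 had an unadjusted p under 0.05.

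The third family joined subunits and assembly factors of the respiratory chain with those of ATP synthase. Among its 4 Z-linked genes, ATP5A1 of ATP synthase, the complex I subunit NDUFS4 and the complex I assembly factor NDUFAF2 fell. COX7C, a subunit of cytochrome c oxidase, had 118, 146, 210 and 145 RPKM in hearts with W transcripts, against 282, 272, 236 and 333 RPKM in hearts without. The groups of COX7C did not overlap, but the gene missed the threshold (log2 difference -0.88, limma adjusted p = 0.0574). The sum over the 4 genes was 968 ± 104 RPKM in hearts with and 1802 ± 244 RPKM in hearts without W transcripts (SD, n = 4 each), a ratio of 0.537. ATP5A1, at 780 RPKM in hearts with and 1457 RPKM in hearts without W transcripts, made up most of this sum. Its W copy, ATP5A1W, is not counted in it, nor is RBF, whose symbol the family rule misses, so the ratio is not that of the whole complexes. Over 61 autosomal genes of the family the ratio of the sums was 0.990, and the median log2 difference was 0.00, with 32 lower and 29 higher. Limma and limma voom called 0 of them, and 0 had an unadjusted p under 0.05.

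Z-linked genes that keep a copy on the W were followed from a list of 31 names, of which 12 were measured past the filter. Of these, 5 fell and BTF3, with its W pattern, was called higher, and the median difference of the 12 was -0.60. The 5 include NEDD4L, whose row is placed on the W, so its call is a description, as for the other W-linked rows. Of all tested Z-linked genes 14.0% were called lower and 0.438% higher, and of all genes 0.632% and 0.346%. The Z-linked shares cover neither NEDD4L nor C18orf25, a member of the list without a chromosome. ATP5A1, the Z copy of ATP5A1W, had 728, 908, 640 and 845 RPKM in hearts with W transcripts, against 1616, 1587, 1156 and 1469 RPKM in hearts without (log2 difference -0.90, SE 0.150, limma adjusted p = 0.0211). Without both libraries with atrial transcripts its difference was -0.72 and its call was lost (limma adjusted p = 0.136, within 0.0129 to 0.439 over all alternatives). SPINZ, the Z-linked spindlin gene, averaged 28.1 ± 4.88 RPKM in hearts with and 48.9 ± 3.33 RPKM in hearts without W transcripts (log2 difference -0.79, limma adjusted p = 0.017). HNRNPK averaged 76.8 ± 5.55 RPKM in hearts with and 122 ± 9.29 RPKM in hearts without W transcripts (log2 difference -0.66, limma adjusted p = 0.00868). TXNL1, a thioredoxin-like protein gene, fell by 0.66 on the log2 scale (limma adjusted p = 0.0119). NEDD4L, a listed Z copy despite its place in the gene table, had a log2 difference of -0.70, given without a test.

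Other members of the list did not pass. VCP, an ATPase that unfolds ubiquitinated proteins, averaged 55.4 ± 10.9 RPKM in hearts with and 86.7 ± 12.2 RPKM in hearts without W transcripts (limma adjusted p = 0.189). UBE2R2, a ubiquitin-conjugating enzyme, averaged 23.7 ± 2.43 RPKM in hearts with and 34.9 ± 3.47 RPKM in hearts without (limma adjusted p = 0.0688). SUB1, a transcription coactivator, averaged 28.0 ± 4.42 RPKM in hearts with and 29.9 ± 1.39 RPKM in hearts without W transcripts (limma adjusted p = 0.965). GOLPH3, TMEM161B and C18orf25 had log2 differences of -0.49, -0.35 and -0.24. Outside the list, MADH2, an older symbol of the signal transducer SMAD2, was among the 64, at 15.4 RPKM in hearts with and 24.0 RPKM in hearts without W transcripts. CHPKCI, listed with the synonyms HINTZ and PKCIZ and thus the Z relative of HINTW, averaged 133 ± 16.9 RPKM in hearts with W transcripts and 235 ± 25.01 RPKM in hearts without, and also fell (log2 difference -0.82, limma adjusted p = 0.0084).

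Sums of a Z copy and its W copy are given as a description. The W copies were near 0 RPKM in hearts without W transcripts, so adding them can only raise the ratio, and ATP5A1W had itself made the split. ATP5A1 and ATP5A1W together had 1218 ± 108 RPKM in hearts with W transcripts and 1458 ± 211 RPKM in hearts without (SD, n = 4 each). The ratio was 0.835 for this sum and 0.536 for ATP5A1 alone, and the W copy made up 32.6% to 43.7% of the sum in hearts with W transcripts. HNRNPK and HNRPK together had a ratio of 0.858, against 0.631 for HNRNPK alone. The sum of SPINZ and SPINW had a ratio of 0.684, against 0.574 for SPINZ alone. How reads were divided between near-identical copies is not given in the sources used here, and the sums carry no test.

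A minority of Z-linked genes were not lower. SLC1A1, a glutamate and cysteine transporter, had 3.38, 3.54, 4.30 and 2.54 RPKM in hearts with W transcripts, against 0.242, 0.249, 0.334 and 0.230 RPKM in hearts without. The groups did not overlap, with a log2 difference of 1.80, given without a test because the gene passed the filter through hearts with W transcripts alone. AK3, a mitochondrial adenylate kinase, had 16.5, 18.02, 23.8 and 19.4 RPKM in hearts with W transcripts, against 11.6, 8.93, 13.6 and 8.90 RPKM in hearts without. It did not overlap but missed the threshold (log2 difference 0.81, limma adjusted p = 0.0593). The other Z-linked genes that lay higher in all hearts with W transcripts were BTF3, MAP1B, KANK1, HOMER1, CFC1 and ACO1. These 8 genes, BTF3 with its W pattern included, were 1.75% of the tested Z-linked genes. That is near the 1.43% of all genes and 1.06% of autosomal genes that separated in this direction. Abundant Z-linked genes with nearly equal averages, named after their values were seen, included OXCT1, PGM5 and LOX. OXCT1, a ketone body enzyme, averaged 161 RPKM in hearts with and 173 RPKM in hearts without W transcripts. PGM5, a muscle adhesion protein related to phosphoglucomutase, averaged 71.9 RPKM in hearts with and 69.9 RPKM in hearts without. LOX, a collagen cross-linking enzyme, averaged 59.7 RPKM in hearts with and 56.6 RPKM in hearts without. Its average in hearts with W transcripts leaned on Lhasa White 2, a library with atrial transcripts, at 97.4 RPKM. Chahua 1, Chahua 2 and White Leghorn 1 had 58.8, 41.5 and 41.1 RPKM of LOX.

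SLC1A1, AK3 and KANK1 lie close together on the Z. Of the 10 measured genes on each side of SLC1A1 in the order of the gene table, 9 were higher and 11 lower in hearts with W transcripts. Their median difference was -0.07, against -0.35 over all 457 ordered Z-linked genes. The window was centred on SLC1A1 because that gene was higher, and it holds AK3, KANK1 and MAP1B, already noted as higher. Its values are therefore a description, and whether this stretch differs from the rest of the Z was not tested. Limma and limma voom called 0 of the 20, with 3 higher and 5 lower at an unadjusted p under 0.05. Of the 457 tested Z-linked genes limma called 14.0% lower, with 15 higher and 196 lower at that unadjusted limit. Over all 11556 genes 312 were higher and 342 lower at it. Among the neighbours of SLC1A1, the cytokine receptor kinase JAK2 averaged 4.81 ± 3.08 RPKM in hearts with and 3.76 ± 1.20 RPKM in hearts without W transcripts, and its groups overlapped. Along the chromosome the median of 21 adjacent measured genes reached its maximum, 0.09, at KANK1, and its minimum, -0.63, at SNCAIP. The median around SLC1A1 was -0.05 in Lhasa White and 0.05 in White Leghorn, but -0.23 without both libraries with atrial transcripts. DMRT1, which stayed below the filter, had 3.65, 0.969, 0.459 and 0.591 RPKM in hearts with W transcripts, against 0.554, 0.213, 0.171 and 0.126 RPKM in hearts without. Its highest value came from Lhasa White 2, and MHM RNA was not analysed here.

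**Figure D4:**
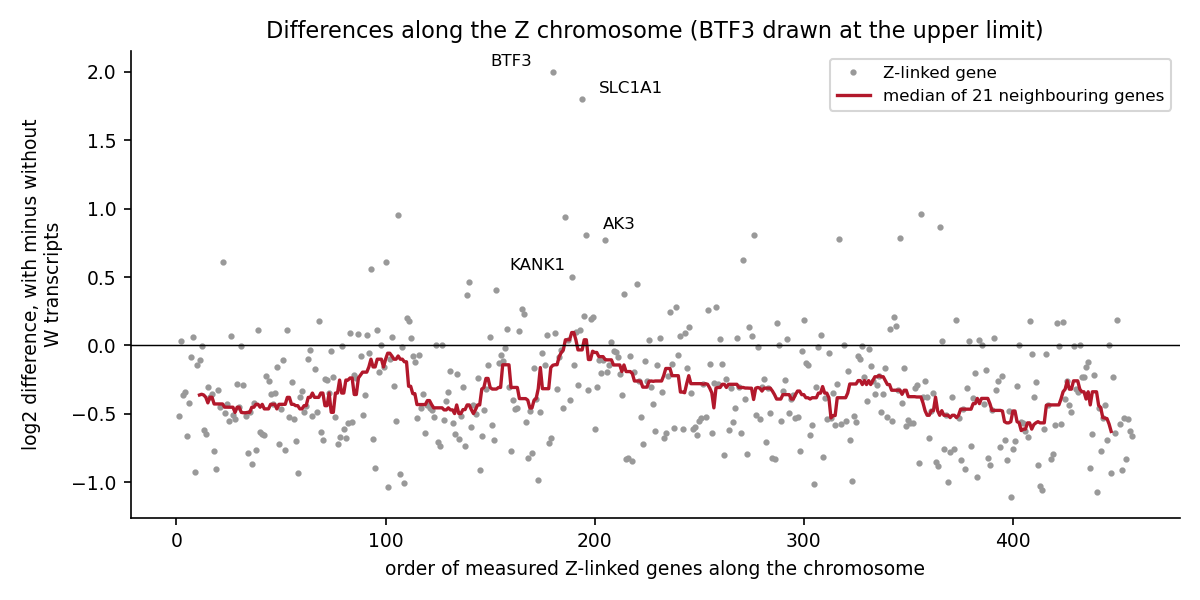
Log2 difference, hearts with minus hearts without W transcripts, of each measured Z-linked gene in chromosomal order, with the running median of 21 genes as a line; BTF3 is drawn at the upper limit. The line stays below 0 for most of the chromosome, with its maximum of 0.09 at KANK1, within 10 measured genes of SLC1A1 and AK3.

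Z-linked levels were lower throughout the range of expression. In 4 bins of rising mean RPKM, Z-linked genes had median log2 differences of -0.19, -0.35, -0.49 and -0.52, low to high, and the autosomal genes in the same ranges 0.09, 0.05, 0.03 and 0.00. On read counts without the added 1 RPKM the Z-linked medians were -0.36, -0.45, -0.56 and -0.55 in the same order of bins. The 64 genes that fell numbered 0, 5, 23 and 36 in these bins.

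Lhasa White and White Leghorn each held a library on either side, which allowed the difference to be read inside a breed. With a single library per group in each breed these values have no test. The median Z-linked difference was -0.36 in Lhasa White (library 2 minus 1) and -0.31 in White Leghorn (library 1 minus 2), against autosomal medians of 0.05 and 0.04. At least 1.5-fold lower in Lhasa White 2 were 144 of 457 Z-linked genes, where 5.3% of all genes passed that limit, and 119 were in White Leghorn 1, where 2.6% of all genes did. Among autosomal genes 3.31% were past that limit in Lhasa White 2 and 0.835% in White Leghorn 1. In both breeds 82 Z-linked genes, or 17.9%, were past 1.5-fold lower, against 0.195% of autosomal genes and 1.09% of all genes. In the other direction, at least 1.5-fold higher were 32 Z-linked genes in Lhasa White 2, where 11% of all and 10.2% of autosomal genes were, and 5 in White Leghorn 1, where 2.14% of all and 1.22% of autosomal genes were. Both breeds shared 3 such Z-linked genes, against 0.874% of all and 0.369% of autosomal genes. The 64 genes that fell had been called with these libraries among the 8 and had groups that did not overlap, so their direction inside each breed was fixed by that choice. As a description, 52 of them were past 1.5-fold in both breeds, with medians over the 64 of -0.76 in Lhasa White and -0.75 in White Leghorn. ACAA2 was lower by 1.40 on the log2 scale in Lhasa White and by 0.94 in White Leghorn, TMOD1 by 0.92 and 0.87, and DCTN3 by 0.84 and 0.83.

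**Figure D5:**
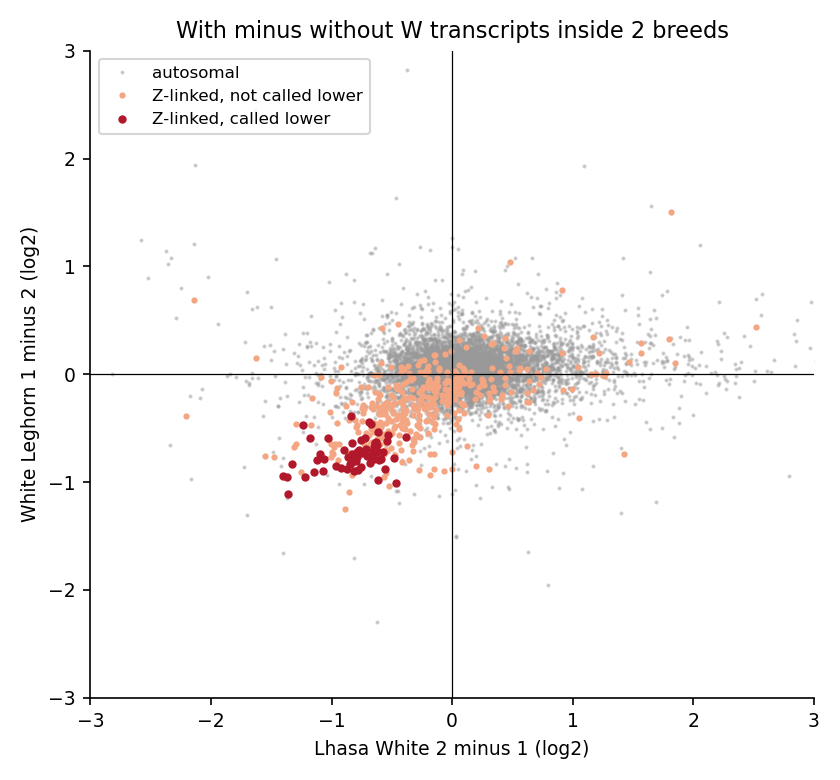
Log2 difference of library 2 minus 1 in Lhasa White (horizontal) against library 1 minus 2 in White Leghorn (vertical), both hearts with minus hearts without W transcripts, 1 point per gene; 1 Z-linked and 23 autosomal genes lie outside the axes. The Z-linked genes that fell sit in the lower left, while autosomal points spread around 0 and more widely along the Lhasa White axis.

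With breed as a term in limma, which rests the difference on these 2 breeds and leaves 3 residual degrees of freedom, the Z-linked median was -0.34 but no Z-linked gene was called lower, nor was any in limma voom with that term. At an unadjusted p under 0.05 there were 127 lower and 7 higher in limma, and BTF3, with its W pattern, was the one row placed on the Z that was called higher; over all genes 0.225% were called higher and 0% lower. The median of the 64 genes was -0.74 in this fit, with a direction fixed by their choice, and SLC1A1 had a difference of 1.66. A test of whether the difference itself differed between Lhasa White and White Leghorn called 0 of 11556 genes in limma and 0 in limma voom on recovered reads, with 279 and 203 at an unadjusted p under 0.05. That fit had 2 residual degrees of freedom. The median difference between the breeds was 0.01 for Z-linked and 0.02 for autosomal genes.

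Autosomal genes differed little between the groups. Of 9217 tested, 1 rose (0.0108%) and 0 fell (0%) in limma, with 203 higher and 85 lower at an unadjusted p under 0.05, and limma voom also called 1 higher and 0 lower. Groups did not overlap for 98 autosomal genes that were higher (1.06%) and 57 that were lower (0.618%) in hearts with W transcripts. Of the 9217 genes, 119 reached 1 RPKM in no heart without W transcripts, and 22 in no heart with them. Such genes passed the filter through the group where they were high, so these counts by direction are a description. The gene that rose was MYLK, the myosin light chain kinase best known from smooth muscle. MYLK had 46.5, 47.6, 43.1 and 40.9 RPKM in hearts with W transcripts, against 31.997, 31.4, 30.8 and 29.5 RPKM in hearts without. The groups were apart by more than their spread (log2 difference 0.51, SE 0.0888, limma adjusted p = 0.0272). The call was lost in 11 of the alternatives, with adjusted p from 0.0162 to 1 over all of them. It was 0.13 without both libraries with atrial transcripts, where the difference was 0.50, and 1 with breed as a term, where it was 0.45.

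LDHA, a lactate dehydrogenase subunit, was next, at 155, 137, 156 and 102 RPKM in hearts with W transcripts and 70.0, 84.3, 88.6 and 80.0 RPKM in hearts without. It did not overlap but missed the threshold (log2 difference 0.75, limma adjusted p = 0.0549). The difference of LDHA was 0.55 without both libraries with atrial transcripts, 1.14 inside Lhasa White and 0.27 inside White Leghorn. With each library left out, its limma adjusted p ran from 0.00922 to 0.202. RBM24, an RNA-binding splicing regulator of muscle, had 135, 134, 116 and 167 RPKM in hearts with and 169, 204, 228 and 201 RPKM in hearts without W transcripts (log2 difference -0.54, limma adjusted p = 0.173). With breed as a term 1 autosomal gene passed, MYL1, a fast skeletal myosin light chain. MYL1 had 62.5, 25.4, 27.1 and 57.6 RPKM in hearts with W transcripts, against 19.3, 18.9, 22.7 and 19.5 RPKM in hearts without. Lhasa White 2 and White Leghorn 1 were high and both Chahua libraries only slightly above the others. Its difference was 1.603 with breed as a term (limma adjusted p = 0.00913) and 0.95 without it (limma adjusted p = 0.359), within 0.00913 to 0.764 over all alternatives. Without White Leghorn 1, 7 of 9201 autosomal genes were called higher and 1 lower, against 46 higher and 49 lower over all 11523 genes tested.

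Genes of sex differentiation and sex steroid action were mostly low in these hearts. Of 26 names, 23 had a row and 11 passed the filter, with 5 higher and 6 lower in hearts with W transcripts and a median of -0.02. HSD17B4, a peroxisomal enzyme of fatty acid oxidation and steroid metabolism and itself Z-linked, was the 1 member called in limma. Among all tested Z-linked genes 14.0% were called lower, and among all genes 0.632%. HSD17B4 had 26.5, 24.8, 29.0 and 24.3 RPKM in hearts with W transcripts, against 42.7, 41.9, 34.3 and 38.7 RPKM in hearts without (log2 difference -0.57, SE 0.106, limma adjusted p = 0.0372). Its call was lost in 10 of the alternatives. Without both libraries with atrial transcripts its difference was -0.66 (limma adjusted p = 0.0708). With breed as a term it was -0.72 (limma adjusted p = 0.410). HEMGN, a Z-linked gene of blood cells and of the developing testis, had 3.89, 2.64, 2.31 and 6.69 RPKM in hearts with W transcripts and 11.0, 9.56, 3.004 and 9.04 RPKM in hearts without, and its groups overlapped (limma adjusted p = 0.847). SOX9, a transcription factor of testis and cartilage, had 1.86, 0.607, 1.04 and 0.152 RPKM in hearts with W transcripts, against 0.184, 0.145, 0.150 and 0.197 RPKM in hearts without. Both libraries with atrial transcripts held its highest levels. SOX9 and WNT4, another gene of the list, reached 1 RPKM in these libraries alone, so they passed the filter through hearts with W transcripts. Their place among the 5 higher genes is a description, and SOX9 is given without a test.

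Limma and limma voom called none of 59 tested marker genes in 8 lists of cell types, with 8 higher and 0 lower at an unadjusted p under 0.05. Over all 11556 tested genes limma had 312 higher and 342 lower at that limit, and called 0.346% higher and 0.632% lower. By direction alone, 6305 of all tested genes were higher in hearts with W transcripts. The mean deviation of a list from its level over the 8 libraries, on the log2 scale, was largest in Lhasa White 2 for the atrial (1.95), nerve and glia (1.55), fibroblast (0.87), arterial wall (0.77) and immune (0.77) lists. Chahua 2 came next in the atrial (0.43) and nerve and glia (1.07) lists, but lay at 0.0064 in the fibroblast and -0.15 in the arterial wall list, below Chahua 1 at 0.032 and 0.13. Hearts with W transcripts had higher levels of 11 of 12 fibroblast and matrix genes, with a median difference of 0.41, and 0.17 without both libraries with atrial transcripts. Their summed level ranged from 1481 to 3403 RPKM in hearts with and from 1137 to 1603 RPKM in hearts without W transcripts. All 5 immune and all 4 nerve and glia genes were higher in hearts with W transcripts, with medians of 0.50 and 0.77, and 0.20 and 0.33 without both libraries. STMN2, a neuronal gene of the nerve and glia list, reached 1 RPKM in Lhasa White 2 and Chahua 2 alone. It thus passed the filter through hearts with W transcripts, and its part in these counts, the 8 included, is a description. Without both libraries it failed the filter, so 0.33 is the median of SOX10, ELAVL4 and TH, while 0.77 includes STMN2. The immune genes summed to 15.6 to 35.0 RPKM in hearts with and 12.0 to 17.9 RPKM in hearts without W transcripts, and the nerve and glia genes to 4.93 to 52.8 RPKM in hearts with and 4.58 to 6.97 RPKM in hearts without. STMN2 was at 0 RPKM in White Leghorn 2. Smooth muscle and arterial wall genes were higher in 6 of 7, with ELN, the elastin gene, at 1468 RPKM in Lhasa White 2 and 67.5 to 157 RPKM elsewhere. Of 9 atrial genes 5 were higher, with a median of 0.21 (0.06 without both libraries) and sums of 1794 to 3749 RPKM in hearts with and 1530.05 to 2908 RPKM in hearts without W transcripts. Of 6 ventricular genes 3 were higher, with a median of -0.07. Of 11 endothelial genes 4 were higher, with a median of -0.04, and of 5 blood genes 1 was, with a median of -0.37. The part of these cell types in the autosomal differences was not tested. For Z-linked genes the median without both libraries with atrial transcripts was -0.50.

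Of the 1870 tested rows without a chromosome, 31 were called higher (1.66%) and 8 lower (0.428%) in limma. The 28 rows with the W pattern described above were among the 31, and 30 of the 31 reached 1 RPKM in no heart without W transcripts, so that count is a description. The 8 lower rows had ratios of 0.452 to 0.639, inside or near the range of the 64 Z-linked genes. The most abundant, ENSGALG00000002696, had 676, 721, 830 and 791 RPKM in hearts with W transcripts, against 1334, 1283, 1583 and 1446 RPKM in hearts without (log2 difference -0.90, limma adjusted p = 0.00327). No gene name or place was given to these rows.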

How the data were processed

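The deposited table holds RPKM values for 15873 Ensembl gene rows in 8 libraries, per the file headers. BWA is named without a version in the submitters' processing notes. No source used here gives the genome build, gene models, counting rules or strandedness. RPKM is the number of reads on a gene divided by its length and by the mapped reads of the library, as deposited by the authors. Length and depth are thus scaled out, and reads shared by W and Z copies, paralogs or overlapping genes cannot be told apart.

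Libraries were split by ATP5A1W at 50 RPKM. The members and the gene lists were chosen with earlier results of these data known. Chromosomes were looked up by symbol or synonym in a RefSeq gene table (assembly GRCg7b), used only for names, chromosome and gene order. Rows whose symbol was on a separate list of W copy names were counted as W-linked as well. This gave 588 rows on the Z, 8 on the W and 11671 on autosomes, and 3600 rows stayed without a chromosome. Symbols were missing for 2730 rows.

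The 11556 rows that reached 1 RPKM in 2 or more libraries were tested on log2(RPKM + 1) with limma 3.58.1 (R 4.3.3), using moderated variances with a trend and the W group as the only term, which left 6 residual degrees of freedom. Tests were two-sided, with Benjamini-Hochberg adjustment over all rows tested. Further fits had breed as a term, and an interaction of breed and W group. The 8 W-linked rows stayed among the rows tested, with 6 called higher and 1 lower, but as the split used one of them these calls support nothing and the rows are described by their levels. Values inside a breed are differences of 2 libraries. The procedure was tested on simulated data.

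Whole read numbers were recovered from the RPKM values for 100% of rows, within a tolerance of 0.05 reads. The median tested row had 456 reads per library, and limma voom on these reads was an alternative. The other alternatives were a pseudocount of 0.1, other filters, median ratio and quantile scaling, leaving out libraries, and the replicate number as a block. Voom with breed as a term was added after seeing the data. Named genes were all W-linked rows, the 10 Z-linked and 10 autosomal genes with the smallest p, the 10 most abundant Z-linked genes, Z copies of W-linked genes, Z-linked genes that rose, the 5 autosomal genes with the smallest p with breed as a term, and for each further list the 4 members of smallest p. The text names part of these. Genes named outside this rule were chosen after their values were seen, as were MAP1B, HOMER1, CFC1, ACO1, JAK2, SNCAIP, DMRT1 and TUSC1. Python 3.11.15 with NumPy 2.4.6, pandas 2.3.3 and matplotlib 3.10.9 was used for the rest.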

Additional observations from a re-analysis of the deposited data

Results flagged for a closer look

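Some single libraries stood far from the other 3 of their group. The gap to the nearest library took up most of the range of the group in 18 of 178 groups, over 89 named genes. The limit used would flag about 1 in 20 groups of independent, normally distributed values. RPKM values need not be so distributed, and genes of a list can move together, so no excess is read from this count.

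Among W-linked rows, Lhasa White 1 stood above the other hearts without W transcripts in ATP5A1W (4.02 RPKM), in both HINTW rows (3.91 and 0.349 RPKM) and in WPKCI (1.52 RPKM). HNRPK was low in Chahua 1 among hearts with W transcripts, at 26.8 RPKM. Among Z-linked genes, RPS23 was low in Chahua 1, at 789 RPKM. TMEM161B, a Z copy of a W-linked gene, was high in Chahua 2, at 3.36 RPKM, as was the transcription factor gene RFX3, at 2.94 RPKM.

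Lhasa White 2, a library with atrial transcripts, stood above the other hearts with W transcripts in MYH7 (1457 RPKM), BMP-10 (289.7 RPKM) and ELN (1468 RPKM). Chahua 2, the other such library, was high in the ventricular light chain gene MYL3 (10168 RPKM) and in the embryonic globin gene HBE (19.6 RPKM), and low in NKIRAS2 (53.3 RPKM). The pericyte gene RGS5 was low in White Leghorn 1, at 42.0 RPKM. Among hearts without W transcripts, TMEM200B was high in White Leghorn 2 (2.89 RPKM), CPM in Lhasa White 1 (11.0 RPKM) and MYL1 in Linzhi Tibetan 1 (22.7 RPKM).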

How the results depend on the processing

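The 64 Z-linked genes called lower became 0 with breed as a term and 0 with limma voom and breed as a term, and 31 to 73 when each library was left out in turn. The 2 Z-linked genes called higher became 1 in both fits with breed as a term, and 2 to 3 with each library left out. The single autosomal call became 0 with median ratio scaling, without both libraries with atrial transcripts and with the replicate block. With each library left out there were 0 to 8 autosomal calls, higher and lower together. The Z-linked median of -0.35 was -0.46 with a pseudocount of 0.1, -0.23 without the low-value filter, -0.48 at a mean of at least 5 RPKM, -0.48 with limma voom, -0.50 without both libraries with atrial transcripts, and -0.47 to -0.30 with each library left out. The autosomal median of 0.03 was -0.023 without both libraries with atrial transcripts and 0.01 to 0.06 with each library left out. The breed term leaves 3 residual degrees of freedom, and the cause of the other shifts was not tested. No direction of a called value turned. The groups of the 64 genes did not overlap, so leaving out libraries or adding breed could not have turned theirs.

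The labels give each breed a library 1 and a library 2. The difference of library 1 minus 2 correlated between breeds at -0.33 to 0.17, so the numbers were not taken as pairs. With the replicate block 51 Z-linked genes were called lower and 2 higher, and the Z-linked median was -0.35. Limma voom called 64 Z-linked genes lower, 59 of them among the 64 called on RPKM. Fold sizes of the lowest rows are limited by depth and by the pseudocount, and W rows at 0 RPKM in a library are not shown to be absent.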
